A study of Mus musculus with 37 samples.

Results

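The abundant long intergenic noncoding RNA (lincRNA) genes of mouse oocytes comprised 121 of the 5624 lincRNA gene rows, among 54752 gene rows in all. The members were chosen by their expected counts, the read counts per gene that the program RSEM estimated. A gene of annotation type lincRNA entered the set when it had at least 100 expected counts in all 6 GV oocytes of batch A, or in all 6 MII oocytes of batch A. Gm42418 and AY036118, which lie over ribosomal RNA sequence, and Gm26870 were left out by the same rule. Since the counts of these 12 oocytes selected the set, the members' levels in batch A and their differences between GV and MII are given as a description only, and nothing is read from the calls printed for them. A total of 112 members reached the threshold at GV and 96 at MII, and 87 of them did so at both stages. Just inside the threshold were Gm49292, with a lowest count of 100.34 at GV, and Gm38416, with a lowest count of 101.23 at MII. Just outside it were Gm47407, with 98.6 at GV, and Gm16973, with 99.51 at MII.

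Single oocytes were collected from C57BL/6 females aged 6 to 8 weeks, amplified by Smart-seq2, which copies polyadenylated RNA without marking its strand, and sequenced as pairs of 150 bp reads. Batch A held 6 GV and 6 MII oocytes, and batch B held 10 GV and 15 MI oocytes. GV oocytes, with an intact germinal vesicle, came from ovaries 48 h after 5 IU of pregnant mare serum gonadotropin (PMSG). MII oocytes, arrested at metaphase II, were ovulated and taken from the ampulla 15 h after 5 IU of human chorionic gonadotropin (hCG), itself given 48 h after PMSG, whereas MI oocytes, at metaphase I, were GV oocytes cultured without their cumulus cells for 8 h in M16 medium under 5% CO2. MI was present only in batch B and MII only in batch A, so these stages were never sequenced side by side. Meiotic stage and culture cannot be told apart at MI, nor stage and ovulation after hCG at MII. The labels do not tie oocytes to animals, so p-values measure the spread between oocytes, some of which may share a mother.

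A fully grown mouse oocyte stays arrested before the first meiotic division and has largely stopped transcription. On resumption the germinal vesicle breaks down, the oocyte passes metaphase I and arrests again at metaphase II, and its RNA pool is then shaped by storage, polyadenylation and decay. Many long noncoding RNAs of mouse oocytes start in or contain transposable element sequence, so that stretches of a transcript recur in many genes. Most of the genes described here carry no listed symbol with a known role.

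The RSEM counts assigned to genes ranged from 7509875 to 12648629 in the 6 GV oocytes of batch A, with a median of 10014033. The MII oocytes had 9930485 to 13988444 counts, with a median of 10509159. In batch B the GV oocytes had 7184205 to 17724506 counts, with a median of 11548242, and the MI oocytes 2709280 to 19390128, with a median of 12840734. Some libraries stood apart. MII oocyte 1 had 29518 detected genes against 19273 to 22244 in the other MII oocytes, and the blood and immune markers summed to 13.6 CPM (counts scaled to the same library size) in it, the highest value among the MII oocytes. The smallest library was that of MI oocyte 15, with 2709280 counts and 12505 detected genes. MI oocytes 4, 8 and 9 differed in the ratio of the counts made with the program HTSeq to the RSEM counts, the median over genes being 1.13, 1.11 and 1.07 in them against 1.98 to 2.20 in all other oocytes. Shares, threshold counts and calls are also given without some of these libraries, and values include them unless an omission is named.

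All 12 oocyte markers, among them the zona pellucida genes Zp1 to Zp3 and the growth factor genes Gdf9 and Bmp15, were detected in every oocyte. Their summed level, in CPM normalised by TMM over the 37 oocytes (normalised CPM hereafter), ranged from 9421 to 15140 in GV oocytes of batch A, with a median of 11219. It ranged from 6949 to 8930 at MII, from 4371 to 7987 in GV oocytes of batch B and from 4194 to 6572 at MI. Gdf9 was the most abundant of them in GV oocytes of batch A, at a mean of 2184. The 13 cumulus and granulosa markers together reached 21.96 to 37.8 normalised CPM at GV and 25.5 to 34.8 at MII in batch A, and 30.5 to 65.5 at GV and 18.4 to 86.4 at MI in batch B. Most of that sum came from Cyp19a1 and Nr5a2, whereas Amh and Ptx3 were at 0 in 35 of the 37 oocytes and Foxl2 in 32. Single markers differed between the stages in both directions, which was not tested. Ccnd2 had a mean of 2.67 at GV and 0.0538 at MII in batch A, and of 4.03 at GV and 0.276 at MI in batch B. Fshr had 0.920 at GV and 0.0134 at MII in batch A, Inha had 0.687 and 0.0506, and Gja1 had 3.52 at GV and 0.305 at MI in batch B. The Fshr mean at GV rested largely on GV oocyte 4 of batch A, with 4.48. Has2, with 1.06 at GV and 2.39 at MI in batch B, and Nr5a2, with 13.1 and 22.3, had higher means at MI. The highest Has2 value was 8.90 in MI oocyte 6. For Nr5a2 it was 69.7 in MI oocyte 15, the smallest library, which also held the marker sum of 86.4. The 7 blood and immune markers had a summed median of 0.591 at GV and 1.13 at MII in batch A, and 5.89 at GV and 3.59 at MI in batch B. The oocytes had been collected in medium with hyaluronidase, freed of zona pellucida and polar body, and washed before lysis. The part of surrounding cells in the lincRNA values was not tested.

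In GV oocytes of batch A the 121 lincRNA genes took 2.52% to 4.36% of all gene counts, with a median of 3.17%. At MII their share was 2.24% to 2.96%, with a median of 2.80%, or 2.72% without MII oocyte 1. In batch B, whose oocytes did not choose the set, the share was 3.01% to 4.02% at GV, with a median of 3.51%, and 2.67% to 4.501% at MI, with a median of 3.89%. With ribosomal RNA-like and mitochondrial genes taken out of the total, the medians were 4.19% at GV and 3.94% at MII in batch A, and 5.53% at GV and 6.14% at MI in batch B. The MI median was 3.90% without MI oocyte 15 and 3.73% without MI oocytes 4, 8 and 9. Counted by HTSeq, the same genes took a smaller median share of 1.10% at GV and 1.07% at MII in batch A, and of 1.36% at GV and 1.31% at MI in batch B. All 121 members were detected in every oocyte except MI oocytes 6 and 15, which had 120.

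The set was led by a few genes. Ranked by TPM, counts per transcript length scaled to the same total in each oocyte, 5 members exceeded all others by a wide margin in GV oocytes of batch A. Gm37724, a gene with 1 exon on chromosome 1 (chr1:33065130-33066350, GRCm38), had 16308 ± 3957 TPM (SD, n = 6) and ranked 1 among all genes in these oocytes once 4 ribosomal RNA-like genes, Gm42418 among them, and transcripts under 200 bases were left out. Gm16211 on chromosome 4 (chr4:147668518-147670854), close to the zinc finger gene Zfp534, had 7614 ± 1622 TPM. Gm43042 on chromosome 5 (chr5:59569702-59574242) lay 1436472 bases from the nearest protein-coding gene, Pcdh7, and had 6876 ± 1428 TPM. Neither of these latter genes stood apart from the other, their difference being less than the spread between oocytes. Gm38025 on chromosome 3 (chr3:31341012-31345280) had 3444 ± 537 TPM, and C86187 on chromosome 7 (chr7:46967711-46975911) 2981 ± 618 TPM. After a gap followed Gm48843 on chromosome 10 (chr10:14197015-14206821) with 747 ± 185 TPM. The next places were taken by a pair of neighbours on chromosome 6, 4933427D06Rik (chr6:88950683-89110031) with 529 ± 113 TPM and Gm1965 (chr6:89140994-89147388) with 384 ± 49.1 TPM. The 4 members with the highest normalised CPM held 69.0% of the members' total in GV oocytes of batch A, and the top 8 held 81.3%.

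**Figure D1:**
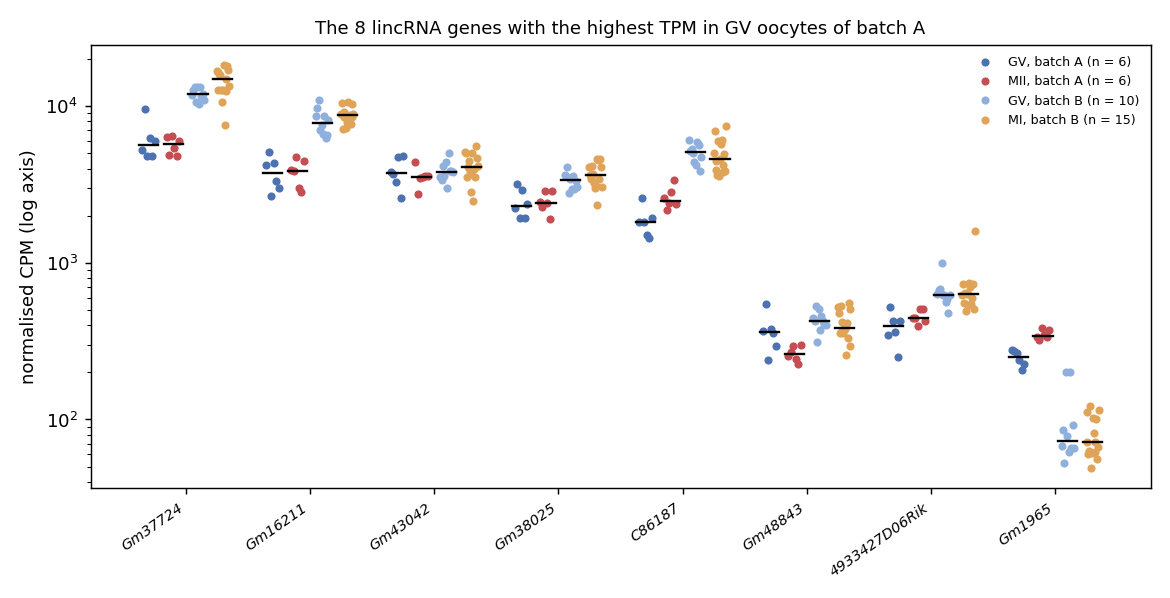
Normalised CPM of the 8 lincRNA genes with the highest TPM in GV oocytes of batch A, on a log axis; each point is 1 oocyte and the bar is the median of its group (6 GV and 6 MII oocytes in batch A, 10 GV and 15 MI oocytes in batch B). Gm37724, Gm16211 and C86187 lie higher, and Gm1965 lower, in the GV oocytes of batch B than in those of batch A.

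The oocytes of a group spread around these means. Gm37724 had a lowest, median and highest value of 4800, 5630 and 9538 normalised CPM at GV, and of 4844, 5715 and 6428 at MII in batch A. In batch B its values were 10270, 11884 and 13294 at GV, and 7546, 14940 and 18385 at MI. The GV and MII oocytes overlapped widely, and 9 of the 15 MI oocytes lay above the highest GV oocyte while 1 lay below the lowest. C86187 had 1439, 1822 and 2586 normalised CPM at GV and 2182, 2497 and 3386 at MII in batch A. It had 3847, 5089 and 6124 at GV and 3587, 4630 and 7467 at MI in batch B. The GV oocytes of batch B were all above those of batch A for both genes.

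The counting method divided the members into separate classes. For 84 members the HTSeq count was 0.536 to 4.83 times the RSEM count in GV oocytes of batch A, with a median ratio of 2.34, beside 2.01 over the 8237 genes whose HTSeq counts averaged 100 or more. For the other 37 members HTSeq gave 0 to 0.166 of the RSEM count, with a median ratio of 0.00596, and no member fell between 0.166 and 0.536. Such a ratio under 0.2 was found for 30.6% of the members, for 4.92% of the 7641 genes with a mean of at least 100 RSEM counts and for 2.67% of the 7201 protein-coding genes among them. Gm37724, the most abundant member by RSEM, had a mean of 87686 RSEM counts and 17.8 HTSeq counts in the same oocytes. Gm16211 had 52894 RSEM and 1133 HTSeq counts, and Gm43042 54123 and 124. Of the 5 leading members C86187 alone was counted in full by both, with 26671 RSEM and 42435 HTSeq counts. The 37 HTSeq-low members took a median of 2.44% of all RSEM counts in GV oocytes of batch A, and the other 84 members 0.672%. Which count is nearer to the amount of RNA was not tested, and levels of the HTSeq-low members are therefore uncertain.

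**Figure D2:**
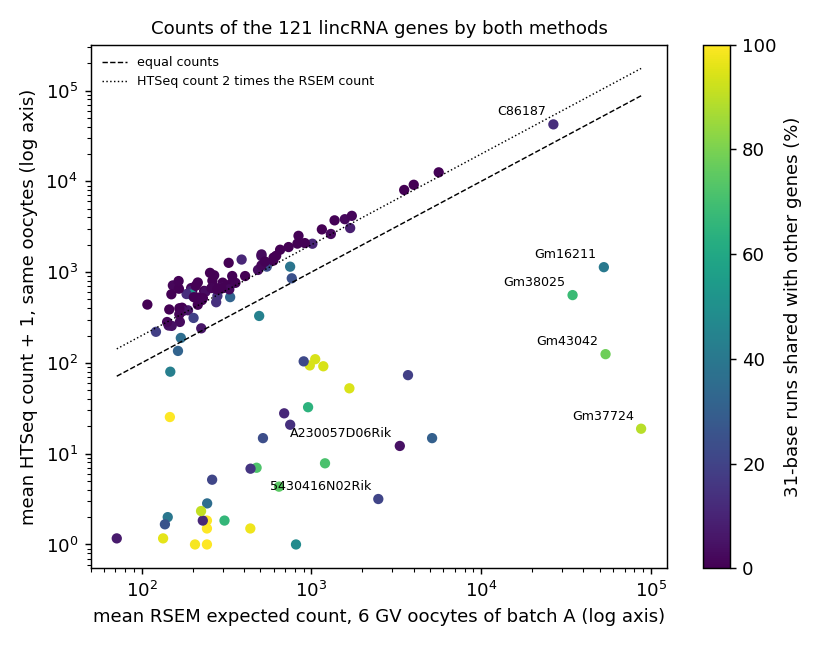
Mean RSEM expected count against mean HTSeq count plus 1 of each of the 121 lincRNA genes in the 6 GV oocytes of batch A, both on log axes, coloured by the percent of a gene's 31-base runs that also occur in transcripts of other genes; the dashed line marks equal counts and the dotted line HTSeq counts 2 times the RSEM counts. The 84 members with a ratio of HTSeq to RSEM counts over 0.2 share a median of 0.818% of their runs and at most 55.0%, and the 37 members below that ratio share a median of 66.3%.

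The HTSeq-low members also stood out by the sequence they share with other genes, a property of the annotation and not of the counts. Each annotated transcript was divided into overlapping runs of 31 bases, and the percent of a gene's runs that occur in transcripts of any other gene was taken. The median was 66.3% for the 37 HTSeq-low members and 0.818% for the other 84. More than 50% of the runs were shared for 20 of the 37 and for 1 of the 84. Exons of another gene overlapped 9 of the 37 and 16 of the 84. Gm37724 shared 89.2% of its runs with a total of 268 genes, and Gm43042 77.9% with 571 genes. C86187 shared 13.0% and Gm1965 none. A read from such a shared run fits several genes, which RSEM divides between them.

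Runs were also shared within the set. Joined wherever a pair had 50 or more runs in common, 16 members formed a single group, and all 16 were HTSeq-low. This group contained Gm37724, Gm16211, Gm43042, Gm38025 and Gm48843, and it held 74.1% of the members' normalised CPM in GV oocytes of batch A. A second group consisted of 7 genes on the X chromosome, E330016L19Rik, Gm14552, Gm2101, Gm2117, Gm2165, Gm2309 and Gm3669. Of these Gm2101, Gm2165 and Gm3669 shared 100% of their runs and received the same counts in every oocyte, 17.9 normalised CPM at the median of the GV oocytes of batch A, so they amount to 1 measurement. A further group of 4 members, AC141429.2, Gm11261, Gm11851 and Gm15298, lay on 3 chromosomes. Of the remaining pairs, Platr30 and Gm17575 lay 17166 bases apart on opposite strands of chromosome 3 and shared 93.9% of their runs. Members of a group are thus not independent of each other in any count given here.

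In structure the members are set beside the 920 lincRNA genes that were detected in all oocytes of a batch A stage but stayed below the threshold. The members' exonic length had a median of 2044 bases against 1551.5, where longer transcripts collect more counts at the same level. Both sets had a median of 3 exons, and the GC content was 46.9% against 46.3%. A single annotated transcript was listed for 44.6% of the members and 67.4% of the other genes. The median distance to the nearest protein-coding gene was 42312 bases for the members and 32762 bases for the others, and 20.7% against 18.6% overlapped exons of another gene. No test was made of these differences. AC160336.1 was the longest member, with 1 exon of 93147 bases on chromosome 14 that contains exons of 5 other genes. With a mean of 263 normalised CPM and 9.22 ± 2.22 TPM in GV oocytes of batch A, it was abundant in counts but not per length.

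Members were found on each autosome and on the X chromosome. Chromosome 6 held 14 of them, 11.6% of the set against 4.13% of the 920 lincRNA genes below the threshold, and the X chromosome 9, of which 7 were the sequence-sharing group. On chromosome 6, 3 members followed each other with gaps under 100 kb. 4933427D06Rik ended 30963 bases before Gm1965 on the same strand, and Gm839 followed 63777 bases further on the opposite strand. These neighbours differed between the batches in opposite directions. 4933427D06Rik had a median of 394 normalised CPM in GV oocytes of batch A and 623 in those of batch B. Gm1965 had 252 and 72.7, and Gm839 92.2 and 53.7.

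Few of the members are among the long noncoding RNAs listed by name. Of 85 annotated genes that carry a listed long noncoding RNA symbol with a known role or name, 46 were of type lincRNA and 2 were members. Pvt1, which lies 47612 bases from Myc on chromosome 15 and is co-amplified with it in tumours, had 36.6 ± 6.37 TPM (SD, n = 6) in GV oocytes of batch A. Its lowest, median and highest values were 10.6, 13.1 and 18.5 normalised CPM at GV and 9.71, 14.1 and 15.7 at MII, which overlapped. Platr30, from a family of transcripts named for their association with pluripotency, had 152 ± 48.2 TPM at GV and 179 ± 15.2 at MII. It was HTSeq-low, with 1054 RSEM and 109 HTSeq counts at GV, and its values cannot be separated from those of Gm17575. Several well-known nuclear and host-gene RNAs of type lincRNA did not reach the threshold in batch A. Malat1, a nuclear speckle RNA, had a mean of 140.2 counts at GV but a lowest count of 44.4. Snhg18 had a mean of 88.1 counts, Snhg6 64.3 and the imprinted Meg3 40.0. Neat1, the scaffold of paraspeckles, had 3.66 counts and Xist 3.30. D6Ertd527e, an abundant oocyte RNA also known as Sirena1, had a mean of 12961 counts but is annotated as protein-coding and was therefore outside the set. Snhg14, Tug1, Dleu2 and Mir22hg met the count threshold too, with lowest counts at GV of 221, 303, 135 and 131. They were outside the set because they are annotated as processed transcript or, for Tug1, antisense.

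From GV to MII in batch A the median log2 difference (MII against GV, TMM normalisation) was -0.12 over the 121 members and 0.01 over the 12929 genes tested, with 46 members higher and 75 lower at MII. By edgeR's quasi-likelihood test with an adjusted p under 0.05 and a fold over 2, 15 members were called lower at MII, where 6.32% of all genes were, and 3 were called higher, where 2.15% were. At an unadjusted p under 0.05 there were 51 members, and 34.3% of all genes. Leaving out each oocyte in turn gave 9 to 19 members lower and 2 to 5 higher. Over all genes it gave 644 to 909 lower and 163 to 337 higher. These counts describe the oocytes that chose the members, and nothing is read from them. With HTSeq counts edgeR called 10 of the 100 members tested lower, where 5.04% of all genes were, and 0 higher, where 0.753% were. At an unadjusted p under 0.05 there were 37 of these members, and 30.5% of all genes. Batch A libraries could also be scaled by their spike-in RNA total, which batch B did not allow, where spike-ins took at most 0.000277% of counts against 0.591% to 1.47% in GV oocytes of batch A. With this scaling the median over all genes became -0.72 and that over the members -0.85, with 52 members called lower, where 29.3% of all genes were, and 1 higher, where 1.01% were. GV and MII oocytes did not overlap for 14 members, 10 of them lower and 4 higher at MII, where 10.1% of all genes did not overlap. The threshold was met only at GV by 25 members and only at MII by 9, so the rule favoured members lower at MII.

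Among the 10 members that lay lower at MII without overlap, Gm36159 had the largest difference. It had a lowest, median and highest value of 8.13, 12.2 and 13.2 normalised CPM at GV and of 0.578, 1.38 and 2.96 at MII, a log2 difference of -3.04 (SE 0.34). The gene overlaps exons of Irgc1 on the opposite strand, and without strand information reads from the overlap cannot be assigned to either gene. 9130204K15Rik, on chromosome 11 (chr11:79781979-79872394), had 28.7, 35.5 and 45.0 at GV and 4.26, 9.75 and 11.5 at MII, a log2 difference of -2.08 (SE 0.23). 2210406O10Rik, which lies 145 bases from Grpel1 on chromosome 5 (chr5:36447611-36464853), had 19.03, 23.8 and 27.4 at GV and 6.50, 8.75 and 10.3 at MII, a log2 difference of -1.50 (SE 0.18). In each of these genes all 6 MII oocytes were below all 6 GV oocytes. The same held for Gm5, with a log2 difference of -1.47 (SE 0.24), for Gm32635, with -1.23 (SE 0.22), and for Gm3924, with -1.15 (SE 0.22). All 6 genes met the count threshold at GV but not at MII, where their lowest counts were 8 to 89.99. The rule thus favoured finding them lower at MII. Of these 6 genes Gm36159 shared 31.8% of its runs, all with Irgc1, and 9130204K15Rik 5.40%, whereas the other 4 shared none. HTSeq counts of the same oocytes gave log2 differences of -2.92 to -0.95 for the 6. Between GV and MI in batch B the log2 differences of the 6 were -0.41 to 0.33.

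Only 4 members lay without overlap higher at MII. Gm26909 had a lowest, median and highest value of 23.3, 33.2 and 52.5 normalised CPM at GV and of 66.6, 73.3 and 87.7 at MII, a log2 difference of 1.01 (SE 0.20). It was HTSeq-low and overlaps Polb, a DNA polymerase gene, on the opposite strand. A230057D06Rik, a transcript of up to 8 exons on chromosome 7 (chr7:61704519-61928690), had 185, 233 and 294 at GV and 400.3, 465.7 and 591 at MII, a log2 difference of 0.97 (SE 0.14). It too was HTSeq-low, with means of 11.2 HTSeq counts at GV and 11.7 at MII, and the HTSeq difference was 0.29 (SE 0.66). Gm20052 had 14.0, 22.1 and 28.7 at GV and 29.4, 33.1 and 34.8 at MII, a log2 difference of 0.56 (SE 0.18), which became -0.13 (SE 0.25) under spike-in scaling. Gm1965 had 207, 252 and 278 at GV and 319.9, 341 and 385 at MII, a log2 difference of 0.44 (SE 0.11), which became -0.33 (SE 0.23) under spike-in scaling. Gm26909 had 0.35 (SE 0.23) and A230057D06Rik 0.26 (SE 0.21) under this scaling, which lowers the values of all genes alike, so nothing is read from these signs. The TMM differences are relative to the other genes of the same oocytes. Higher at MII thus means a larger share of the RNA and is not evidence of a larger amount per oocyte.

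**Figure D3:**
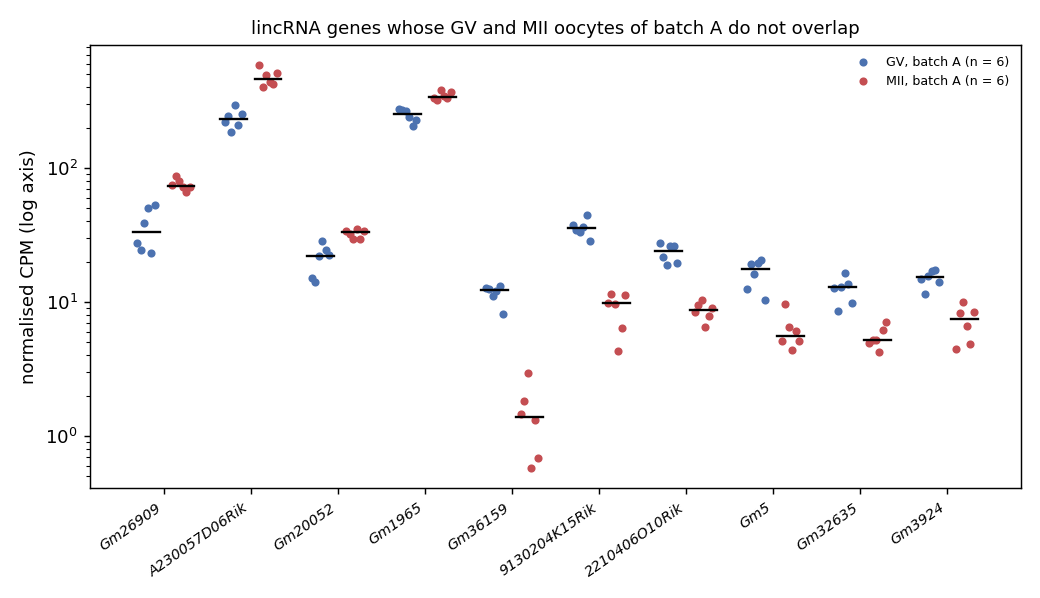
Normalised CPM of 10 lincRNA genes in the 6 GV and 6 MII oocytes of batch A on a log axis, for the 4 higher and the 6 most strongly lower members among those whose stages do not overlap; points are oocytes and bars medians. Gm36159 lies farthest below its GV values at MII, with a log2 difference of -3.04.

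Other members had large differences that rested on few oocytes. Gm26905, chosen after its values were seen, had 2.02 to 34.6 normalised CPM at GV and 9.84 to 473 at MII, and its log2 difference of 3.30 (SE 0.92) became 1.60 without MII oocyte 1, which held the highest value. Gm10845, likewise chosen afterwards, had 17.4 to 119 normalised CPM at GV and 5.93 to 34.3 at MII, with a log2 difference of -1.90 (SE 0.52). It was HTSeq-low and varied widely within each stage. The group of AC141429.2, Gm11261, Gm11851 and Gm15298 had log2 differences of -1.50 to -1.24 from GV to MII in batch A and of 0.04 to 0.17 from GV to MI in batch B. All 4 were HTSeq-low, and their GV values in batch A were spread widely, Gm15298 having 33.6, 53.1 and 214 normalised CPM as its lowest, median and highest value.

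The leading members by TPM showed no separation between GV and MII except Gm1965. Gm37724 had a log2 difference of -0.16 (SE 0.17), Gm16211 of -0.05 (SE 0.18), Gm43042 of -0.15 (SE 0.16) and Gm38025 of -0.04 (SE 0.15). C86187 was at 0.46 (SE 0.15) with RSEM and at 0.44 (SE 0.15) with HTSeq counts, and at -0.28 (SE 0.24) under spike-in scaling. Gm48843 had -0.51 (SE 0.17) and 4933427D06Rik 0.17 (SE 0.15). Gm38025 differed between the counting methods, with -1.16 (SE 0.34) from HTSeq counts.

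The comparison of GV and MI in batch B used oocytes that had no part in choosing the members and could be tested. edgeR's quasi-likelihood test called 0 of the 121 members at an adjusted p under 0.05 and a fold over 2, where it called 15 of the 12419 genes tested (0.121%). At an unadjusted p under 0.05 there were 18 members, 10 of them higher and 8 lower at MI, where 11.0% of all genes passed. The median log2 difference was -0.00 over the members and 0.02 over all genes, with 60 members higher and 61 lower. DESeq2 called 4 members higher, where it called 0.862% of all genes higher, and HTSeq counts tested by edgeR gave 0 of 99 members, where 0.00% of all genes were called. At an unadjusted p under 0.05 the HTSeq counts gave 10 members and 7.45% of all genes. Without MI oocytes 4, 8 and 9 edgeR called 2 members higher, BC051077 and Gm16702, where 0.277% of all genes were called higher, and without MI oocyte 9 alone it called 4, where 0.610% of all genes were.

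A430046D13Rik had the smallest adjusted p. This gene lies 679 bases from Myl6b on chromosome 10 (chr10:128499364-128504242), and its lowest, median and highest values were 8.58, 13.8 and 21.6 normalised CPM at GV and 15.5, 25.4 and 42.1 at MI. The log2 difference was 0.96 (SE 0.20) with a Benjamini-Hochberg adjusted p of 0.0452 in edgeR, and 9 of 15 MI oocytes were above the highest GV oocyte. It passed the adjusted p but not the fold threshold. By the adjusted p alone 12 genes, 0.0966% of all genes, were higher, beside 11 that also passed the fold. Over the alternatives its adjusted p ran from 0.000849 in DESeq2 to 0.664 in edgeR with HTSeq counts without MI oocytes 4, 8 and 9, and it was over 0.05 when any of several single oocytes was left out, for example 0.111 without GV oocyte 8. In GV and MII oocytes of batch A the same gene had medians of 12.1 and 8.51, a log2 difference of -0.51 (SE 0.18), but that batch used other oocytes and another stage, and the contrast between these differences was not tested.

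BC051077, near Vsig10 on chromosome 5 (chr5:117312518-117315645), had 1.90, 6.00 and 7.09 normalised CPM at GV and 1.05, 13.0 and 29.1 at MI. Its log2 difference was 1.32 (SE 0.35) with an adjusted p of 0.115 in edgeR, and 12 of 15 MI oocytes were above all GV oocytes while 1 was below them. Gm16702, which overlaps exons of T2 on chromosome 17 (chr17:8379045-8389468), had 10.3, 19.2 and 43.2 at GV and 5.92, 58.5 and 138 at MI. The log2 difference was 1.35 (SE 0.36) with an adjusted p of 0.117 in edgeR, and 9 of 15 MI oocytes were above all GV oocytes. Both genes had a wide spread at MI and passed neither by edgeR nor, for want of counts, with HTSeq, where they were not tested. Without MI oocytes 4, 8 and 9 their adjusted p in edgeR was 0.0421 and 0.0462. Over all alternatives it ran from 0.0138 to 0.578 for BC051077 and from 0.0271 to 0.499 for Gm16702.

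Among the members lower at MI, Gm49622 had the smallest adjusted p. This gene of chromosome 16 (chr16:63468501-63492117) had 23.9, 34.9 and 62.8 normalised CPM at GV and 11.9, 26.7 and 31.9 at MI, a log2 difference of -0.61 (SE 0.18) with an adjusted p of 0.153 in edgeR and of 0.0514 to 0.526 over the alternatives. AA545190, on chromosome 6 (chr6:10971560-10979638) and 920654 bases from the nearest coding gene, had 40.2, 67.6 and 117 at GV and 21.7, 45.6 and 84.4 at MI. Its log2 difference was -0.59 (SE 0.19) with an adjusted p of 0.177 in edgeR and of 0.0655 to 0.570 over the alternatives, and 5 of 15 MI oocytes lay below all GV oocytes, against 7 for Gm49622. Gm26905, on chromosome 8 (chr8:58171435-58298866), had 4.81, 12.4 and 41.9 at GV and 2.44, 4.84 and 26.2 at MI, with a log2 difference of -1.05 (SE 0.37) and an adjusted p of 0.230 in edgeR and of 0.0757 to 0.483 over the alternatives. Without GV oocyte 1, which held the value of 41.9, the difference was -0.70, and without MI oocyte 15 it was -1.31. None of these passed, and the stages overlapped for all 3.

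For the most abundant members the interval between GV and MI was narrow. Gm37724 had a log2 difference of 0.28 (SE 0.11) with an adjusted p of 0.317 in edgeR and of 0.169 to 0.919 over the alternatives. Gm16211 was at 0.15 (SE 0.10), Gm43042 at 0.11 (SE 0.12), Gm38025 at 0.15 (SE 0.11) and C86187 at -0.01 (SE 0.12). With HTSeq counts Gm16211 and Gm43042 had -0.15 (SE 0.32) and -0.21 (SE 0.43), so their sign depended on the counting. Gm1965 was at -0.27 (SE 0.21), 4933427D06Rik at 0.10 (SE 0.15) and Gm48843 at -0.05 (SE 0.12).

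The members with the highest log2 differences at MI had a stretch of sequence in common. A run of 31 bases in BC051077, the one of its runs found in the most genes, occurs in annotated transcripts of 719 genes; no repeat annotation was used. It was picked after the differences had been seen, so the values are a description and no test was made. The run occurs in 8 members, A430046D13Rik, AC160336.1, BC051077, F630040K05Rik, Gm12976, Gm16702, Gm26909 and Gm48610. Their log2 differences from GV to MI were 0.17 to 1.47, with a median of 1.11, while the 113 members without it had a median of -0.01. Gm12976 had the highest, 1.47 (SE 0.41), with 6.28, 14.1 and 25.6 normalised CPM at GV and 3.82, 33.2 and 109 at MI. F630040K05Rik had 1.12 (SE 0.33), with 7.22, 8.34 and 13.0 at GV and 2.77, 15.2 and 48.8 at MI. In both genes some MI oocytes lay above all GV oocytes and some below. Over all genes tested, the 593 with the run had a median of 0.34 and made up 6 of the 11 genes called higher by edgeR, and the 11826 without it had a median of 0.01. The number called higher was not stable. It was 0 with the replicate number as a block, 0 without GV oocyte 9 or MI oocyte 7, and 75 without MI oocyte 9. DESeq2 called 47 genes with the run higher at MI and 60 without it. With HTSeq counts the median over 433 genes with the run was 0.06, and the 3 members that could be tested had a median of 0.57, F630040K05Rik being at -0.23 (SE 0.39). From GV to MII in batch A the 8 members had -0.51 to 1.15, with a median of 0.06, and the 565 genes with the run had a median of 0.19. There edgeR called 2 of the 8 members higher and 0 lower. It called 30 of the 565 genes higher and 9 lower, beside 248 and 808 of the 12364 genes without the run. BC051077 itself had a mean of 71.4 RSEM counts at GV and 145.9 at MII in batch A. A run picked in the same way from Gm38025, found in 135 genes, had a median of 0.01 between GV and MI over 117 genes tested, beside 0.02 over all genes. The 9 members with this second run had a median of 0.11, with 6 positive, beside -0.01 over the 112 members without it. Their values ran from -0.05 to 1.35, the value of Gm16702, so the members holding the 2 runs overlap. Between GV and MII in batch A the genes with the run of Gm38025 had a median of -0.19 over 116 genes, 29 of them positive, beside 0.01 over all genes. Whether reads of these genes came from the genes themselves was not tested.

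**Figure D4:**
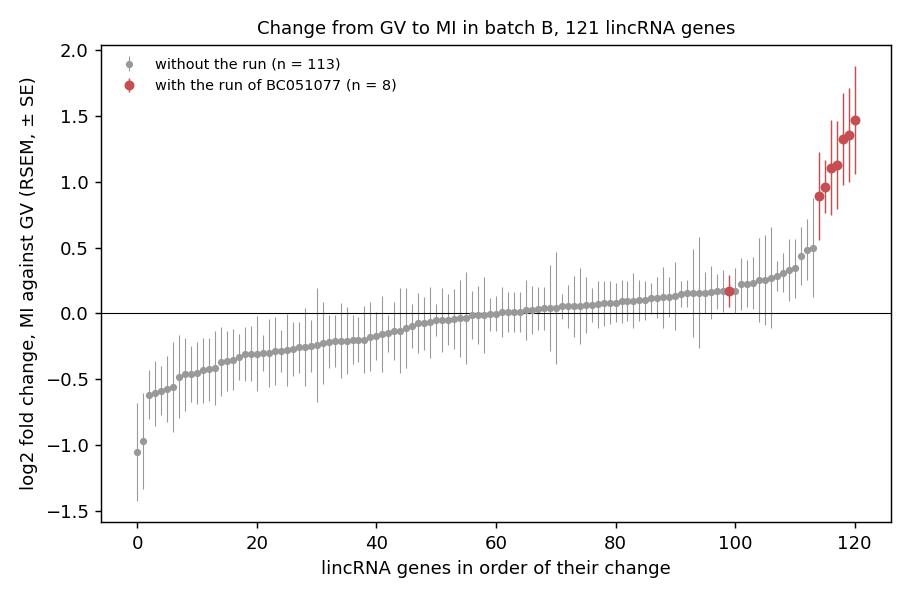
Log2 difference from GV to MI in batch B of each of the 121 lincRNA genes in ascending order, with bars of 1 SE (10 GV and 15 MI oocytes, RSEM counts, edgeR); the 8 members that contain the widespread run of BC051077 are in red. Of these 8, 7 lie at the upper end, and the eighth, AC160336.1, at 0.17.

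Levels of the members at GV correlated between the batches but differed in single genes, about as often as in abundant genes at large. Over all members the rank correlation lay below that of those genes with RSEM counts and above it with HTSeq counts. Over the 84 members not HTSeq-low it lay below that of those genes with either count. Over the 121 genes, the mean log2 normalised CPM of the 6 GV oocytes of batch A and that of the 10 of batch B had a Pearson correlation of 0.935 and a Spearman correlation of 0.808. The points are genes, many of which share sequence, and not independent samples, and batch A levels chose them. With HTSeq counts the values were 0.953 and 0.924 over all members, 0.884 and 0.813 over the 84 not HTSeq-low, and 0.911 and 0.883 over the 7641 genes with a mean of at least 100 RSEM counts in GV oocytes of batch A. The 37 HTSeq-low members had 0.976 and 0.919 and the other 84 had 0.869 and 0.731 with RSEM counts, beside 0.882 and 0.863 over the 7641 genes. More than 1 log2 unit separated the batches for 29 members, or 24.0%, of which 10 were higher and 19 lower in batch B, and for 23.0% of the 7641 genes. The median absolute difference was 0.54 for the members and 0.59 for those genes. Batch here is the label the submitters gave, and no cause of a difference between batches was tested.

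The members farthest apart between the batches, chosen after their values were seen, lay on both sides. Gm45752, whose exons overlap Dpep2 and Dpep3 on the opposite strand, had a lowest, median and highest value of 8.96, 12.3 and 27.0 normalised CPM in GV oocytes of batch A and of 0.165, 2.56 and 6.26 in those of batch B, a log2 difference of -2.03. Gm14552, of the X chromosome group, had 25.2, 31.2 and 37.8 in batch A and 3.64, 8.33 and 13.5 in batch B, a log2 difference of -1.81. Gm43303, on chromosome 5, had 9.79, 19.7 and 74.8 in batch A and 36.0, 70.3 and 119 in batch B, a log2 difference of 1.76. Only Gm43303 of these genes overlapped between batches. Among the most abundant, C86187 was higher in batch B by 1.46, Gm16211 by 1.10 and Gm37724 by 1.01 on the log2 scale, whereas Gm43042 was at 0.03 and Gm1965 at -1.50.

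The count threshold that defined the set was met by 61 members in all 10 GV oocytes of batch B and by 21 in all 15 MI oocytes. The latter number was set by MI oocyte 15, in which 21 members had at least 100 counts. Without that oocyte 59 members met it, and without MI oocytes 4, 8 and 9 again 21. The 21 included all 8 leading members by TPM. Only 4 lincRNA genes met the threshold in batch B but not in batch A, Gm17484, Gm39321, C87198 and Gm10466. Gm17484 had a mean of 30.6 normalised CPM in GV oocytes of batch B against 2.92 in batch A. Its lowest count in GV oocytes of batch B was 46.1, so it did not meet the threshold at GV.

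The spread of the members between oocytes of a group is given as a coefficient of variation. Its median was 25.3% at GV and 23.6% at MII in batch A, and 31.6% at GV and 34.9% at MI in batch B. Over the 7641 genes with a mean of at least 100 counts in GV oocytes of batch A it was 23.8%, 21.7%, 30.7% and 35.1%. Gm14635, on the X chromosome, was the steadiest member at GV in batch A, at 7.60%, with 19.1 to 23.4 normalised CPM. Gm839 followed with 9.30%. At the other end Gm26905 had 111% and Gm43303 89.7%, each with 1 oocyte far above the others. For Gm26905 this was GV oocyte 1, with 34.6 normalised CPM against 2.02 to 9.26. For Gm43303 it was GV oocyte 2, with 1155 RSEM counts against 160 to 364.

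The transcript table allowed the isoforms of 67 members with at least 2 annotated transcripts to be compared. The most abundant transcript was the same at GV and MII in batch A for 63 of them, at GV and MI in batch B for 61, and in GV oocytes of both batches for 57. 1300002E11Rik was an exception, its transcript 1300002E11Rik-205 taking 62.5% of the gene's counts at GV and 22.2% at MII in batch A. This gene overlaps Map3k13 on the same strand. 4933427D06Rik-201 took 50.5% of the counts of its gene at GV and 39.3% at MII in batch A, but 4.51% at GV and 6.41% at MI in batch B. For this abundant gene, then, the batches differed in isoform where the stages of a batch did not differ to that extent. Gm47448-202, with 58.9% at GV and 49.5% at MII, and Pvt1-206, with 39.4% and 25.2%, were the other exceptions in batch A. These shares are RSEM estimates pooled over the oocytes of a group, with no test.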

How the data were processed

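Single mouse oocytes of 2 batches were measured by RNA-seq. The authors trimmed reads with Trim Galore 0.6.4 and deposited tables of expected count by gene and by transcript, estimated with RSEM 1.3.1 on mm10 and GENCODE M20, and whole-number counts per gene from STAR 2.7.6a and HTSeq 0.12.4; strandedness and overlap mode are not given in the sources used here. No deposited table was normalised. From these, the expected count of each gene was rounded to a whole number before testing in edgeR 4.0.16 (TMM, filterByExpr, quasi-likelihood) in R 4.3.3, with Benjamini-Hochberg adjustment over all genes tested and a call at adjusted p under 0.05 and fold over 2; the 92 spike-ins were left out of library sizes. All 121 members passed the filter in both comparisons with RSEM counts, and 100 in batch A and 99 in batch B with HTSeq counts. The fit was tested on simulated data, and no value given here comes from that test. DESeq2 1.42.0, and Python 3.11.15 with pandas 2.3.3 and scipy 1.17.1, served alternatives and summaries. Gene types, positions and transcript sequences came from GENCODE M21 on GRCm38, in place of M20: 120 members matched by versioned identifier and 1 (1700030N03Rik) without version. TPM is the transcript count over annotated length, scaled to the same total in each oocyte; log2 normalised CPM levels carry a pseudocount of 1. Counting error alone is covered by no interval here, since amplified reads are not independent molecules. No pair of oocytes had identical columns.

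The members and lists were chosen with earlier results of these data known. Genes named are the 8 with the highest TPM in GV oocytes of batch A, up to 6 higher and 6 lower without overlap between GV and MII (4 qualified as higher), the 3 higher and 3 lower with the smallest adjusted p between GV and MI, the listed long noncoding RNAs among the members, and the 2 on each side of the threshold; others were named after their values were seen. Alternatives were no filter, RLE scaling, DESeq2, HTSeq counts, spike-in scaling, the adjusted p alone, the replicate number as a block, other count thresholds, another denominator and omission of oocytes.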

Additional observations from a re-analysis of the deposited data

Results flagged for a closer look

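A value far from the others of its group was found by Dixon's ratio of gap to range in 10 of 84 combinations of a named lincRNA gene, or the members' share of counts, and a group of 6 or 10 oocytes. For values from a normal distribution chance gives about 1 in 20, and whether these values follow one was not tested. All values are normalised CPM. Gm37724 had 9538 in GV oocyte 2 of batch A against 4800 to 6280 in the other GV oocytes. Platr30 had 127 in the same oocyte against 52.4 to 67.5. Gm26905 had 34.6 in GV oocyte 1 of batch A against 2.02 to 9.26, 473 in MII oocyte 1 against 9.84 to 71.9, and 41.9 in GV oocyte 1 of batch B against 4.81 to 18.4. In GV oocyte 7 of batch B, Gm20052 had 26.9 against 3.69 to 12.1, Gm32635 20.7 against 1.36 to 7.87, and Gm3924 38.8 against 7.14 to 20.6. 4933427D06Rik had 1001 in GV oocyte 4 of batch B against 479 to 683, and Pvt1 18.8 in GV oocyte 9 against 4.27 to 12.0. What sets these oocytes apart was not tested.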

How the results depend on the processing

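Between GV and MII in batch A, members called lower numbered 15, or 27 by adjusted p alone and 52 with spike-in scaling, and members called higher numbered 3, or 9, 0 with HTSeq counts and 1 with spike-in scaling. Of all genes 817 were lower (1490 by adjusted p alone, 3788 with spike-ins) and 278 higher (1172 by adjusted p alone, 101 with HTSeq counts, 895 without a filter, 131 with spike-ins), and the members' median moved from -0.12 to -0.85 with spike-ins. Leaving out each oocyte in turn gave 9 to 19 members lower, 2 to 5 higher, 644 to 909 genes lower, 163 to 337 higher and a median of -0.19 to -0.07; 9 members were lower without GV oocyte 2, 5 were higher without GV oocyte 4 and 2 without each of GV oocytes 1, 2 and 5 and MII oocytes 1 and 3, and 163 genes were higher without MII oocyte 1. Between GV and MI in batch B, edgeR called 0 members higher (18 in either direction at an unadjusted p under 0.05), against 1 by adjusted p alone, 4 with DESeq2 and 2 without MI oocytes 4, 8 and 9. Genes called lower were 4, or 14 with DESeq2, 0 with HTSeq counts with or without those oocytes (927 and 885 in either direction at an unadjusted p under 0.05), 22 without a filter, 0 with the replicate number as a block (992) and 2 with RLE factors; genes called higher were 11, or 107, 0, 0, 18, 0 with the block, and 33 without MI oocytes 4, 8 and 9. Leaving out each oocyte gave 0 to 4 members higher, 0 to 0 lower, 0 to 75 genes higher, 0 to 7 lower and a median of -0.03 to 0.03. There were 4 members and 75 genes higher without MI oocyte 9, and 0 genes higher without GV oocyte 9 or MI oocyte 7. A single member was higher without each of GV oocyte 7 and MI oocytes 10, 12 and 14, beside 5, 14, 14 and 12 of all genes. The difference from GV to MI changed sign for Gm16211 (-0.15 with HTSeq counts, -0.21 also without MI oocytes 4, 8 and 9), Gm43042 (-0.21 with HTSeq counts) and C86187 (0.0102 with HTSeq counts, 0.0125 without these oocytes, 0.0567 with both). The cause of these shifts was not tested. Replicate numbers did not pair the oocytes. Deviations of same-numbered oocytes correlated from -0.31 to 0.33 in batch A and from -0.13 to 0.10 in batch B. In the 2 batches, 1 of 6 and 0 of 10 matched its own number best. With the block 14 members were lower and 3 higher at MII, beside 668 lower and 218 higher of the 12929 genes tested. With the set itself chosen at 50 counts, 103 of its 185 genes met that threshold in all GV and 36 in all MI oocytes of batch B, and with the set chosen at 200 counts 33 of 62 genes did in all GV oocytes. At the threshold of 100, 59 of the 121 members met it at MI without MI oocyte 15, an omission chosen after seeing the data like the others made for shares and thresholds. The correlations between batches with HTSeq counts were 0.953 and 0.924 over all members, and 0.884 and 0.813 over the 84 not HTSeq-low. Without ribosomal RNA-like and mitochondrial genes the median shares were 4.19% at GV and 3.94% at MII in batch A and 5.53% at GV and 6.14% at MI in batch B; with HTSeq counts they were 1.10%, 1.07%, 1.36% and 1.31%; without MII oocyte 1 and MI oocyte 15 they were 2.72% at MII and 3.90% at MI. Low depth in MI oocyte 15 limits what can be counted at MI.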
